A study of Mus musculus with 12 samples.

Results

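The proximal ascending aorta, the segment that joins the aortic root, was compared between mice heterozygous for a Notch1 allele and wildtype littermates. The libraries are those titled for the proximal aorta of each genotype, 6 of the 12 in the study. Of these, 3 came from Notch1.129S6+/- mice and 3 from wildtype mice of the strain 129S6, each from 1 mouse at 2 months of age. The other 6 libraries hold the distal ascending aorta of the same mice, and they are used to set a proximal difference beside the distal one. Total reads were 28521315 to 36742096 per proximal library. Of 21954 genes in the deposited table, 15518 reached 1 RPKM (reads per kilobase of exons, divided by the size of the library) in at least 3 of the 6 proximal libraries and were kept. The study asked why the dilation of the aorta in these mice lies at the root. The labels do not give which part of Notch1 the allele lacks, and they name no promoter or Cre that would limit it to a cell type.

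Notch1 is a membrane receptor that binds Jagged and Delta ligands on neighbouring cells. Binding lets the protease ADAM10 and then the gamma-secretase complex cut the receptor, and the freed intracellular domain enters the nucleus, where it joins the DNA-binding protein RBPJ and a Mastermind coactivator to switch on Hes and Hey genes. In the arterial wall this pathway passes signals between endothelium and smooth muscle, and mutations of human NOTCH1 are known in families with bicuspid aortic valve and aneurysm of the ascending aorta. The medial wall that dilates in such disease is built by contractile smooth muscle cells between lamellae of elastic fibres, collagen and proteoglycans.

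All 6 libraries carried the transcripts of aortic smooth muscle at a high level. Acta2, smooth muscle actin, stood at 1812 to 2362 RPKM in libraries labelled Notch1+/- and at 1401 to 1834 RPKM in wildtype libraries. Myh11, the smooth muscle myosin heavy chain, stood at 924 to 1233 RPKM against 750 to 1007 RPKM. Log2 expression correlated between pairs of proximal libraries at 0.920 to 0.950, as a description over genes. Wildtype library 3 stood apart in markers of other tissues. Summed RPKM of 24 heart muscle genes was 886, 873 and 1257 in libraries labelled Notch1+/-, against 382, 796 and 2185 in wildtype libraries 1, 2 and 3. Fat cell genes summed to 74.99, 108 and 106 RPKM against 74.1, 84.7 and 262 RPKM. The 6 red cell and platelet genes summed to 12.1, 18.8 and 32.8 RPKM against 183, 11.9 and 61.6 RPKM, highest in wildtype library 1. Mitochondrially encoded transcripts made up 30.7%, 35.2% and 37.4% of the summed RPKM against 34.6%, 36.4% and 43.7%. In tissue of mixed cells, fewer cells of a type and less RNA per cell cannot be told apart.

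**Figure D1:**
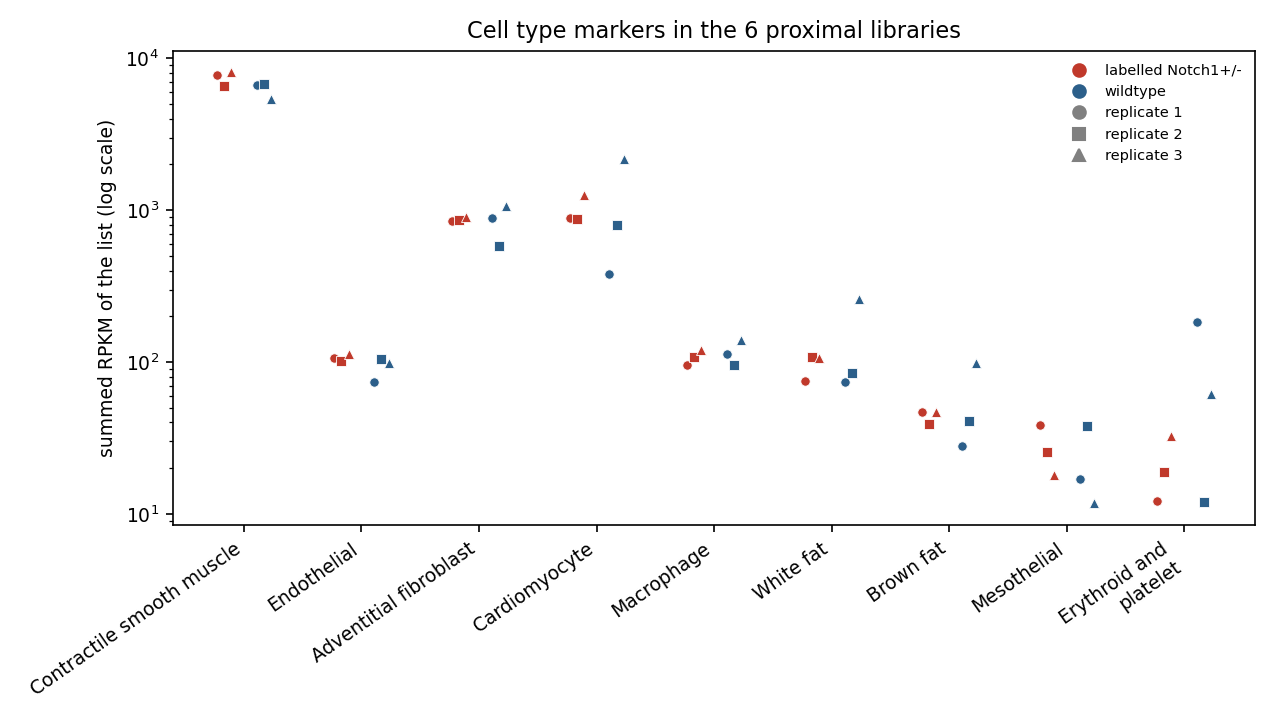
Summed RPKM of the genes of 9 cell type lists in each proximal library on a log axis, with libraries labelled Notch1+/- at the left and wildtype libraries at the right of each list, and 1 symbol per replicate. The highest heart muscle, white fat and brown fat values belong to wildtype library 3, and the highest red cell and platelet value, 183 RPKM, to wildtype library 1.

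Notch1 itself was not lower in the libraries that carry the mutant label. It had 2.20, 1.65 and 1.63 RPKM in libraries labelled Notch1+/-, against 1.11, 1.19 and 1.56 RPKM in wildtype libraries. Every library labelled Notch1+/- thus lay above every wildtype library, although the closest pair differed by little. The fitted log2 difference was 0.38 (SE 0.25, 95% interval -0.17 to 0.92, limma adjusted p = 0.999), and 2-sided exact permutation of the 6 libraries gave p = 0.1, the smallest that 3 against 3 libraries allow. These levels rest on 488, 402 and 429 reads against 317, 296 and 389 reads. The interval lies above -1 on the scale of log2(RPKM + 0.5), which understates fold differences at such low levels. The distal libraries of the same mice were ordered likewise, at 1.18, 1.85 and 1.51 RPKM against 1.12, 0.972 and 0.538 RPKM. The authors' deposited table gave the proximal contrast a Tukey p-value of 0.0688 and a false discovery rate of 0.956. The gene (ENSMUSG00000026923) lies on the minus strand of mm10 chromosome 2, from 26457903 to 26516663. Genes of the plus strand cover 9.76% of its exonic sequence, and their reads cannot be told apart here. The labels do not give which part of Notch1 the allele lacks, so the measured level cannot check the genotype label. Groups are named by their labels throughout.

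The other receptors, the ligand and the processing machinery gave no gene past the test. Of 28 listed Notch receptors, ligands and modulators, 20 were kept, 17 were fitted higher in libraries labelled Notch1+/- and 3 lower, and the median log2 difference was 0.13. Over all genes kept, 69.3% were fitted higher and the median was 0.11, so the list lay 0.02 above the genes at large, and 0.01 to 0.09 above them as single libraries were left out. With median-of-ratios scaling 12 of the 20 were fitted higher and with quantile normalization 14. Notch1 was the 1 of the 20 whose groups did not overlap upward (5%, against 7.93% of all genes kept). Notch2, the most abundant receptor of the family here, had 9.67, 10.9 and 8.73 RPKM in libraries labelled Notch1+/- and 9.35, 5.99 and 7.99 RPKM in wildtype libraries (log2 0.33, SE 0.23). Notch3, the receptor of vascular smooth muscle, had 4.87, 3.51 and 2.95 RPKM against 3.32, 2.97 and 3.89 RPKM (log2 0.12, SE 0.23). Both receptors overlapped between the groups. Jag1, the ligand that endothelium and smooth muscle present to one another, had 5.81, 5.51 and 6.85 RPKM against 3.93, 3.88 and 6.13 RPKM (log2 0.37, SE 0.23). Its groups overlapped only through wildtype library 3. The delta ligand gene Dll1 was listed at no more than 0.898 RPKM in any proximal library and was not kept.

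Rfng, which encodes a fringe enzyme that adds sugar to Notch receptors and tunes their response to ligands, had the largest log2 difference of the list. It stood at 2.42, 1.41 and 2.89 RPKM in libraries labelled Notch1+/- and 1.53, 1.27 and 1.01 RPKM in wildtype libraries (log2 0.60, SE 0.25, unadjusted p = 0.0344, limma adjusted p = 0.999). One mutant-labelled library, number 2, lay within the wildtype range, and its counts across the 6 libraries were as few as 44 reads. In distal tissue its log2 difference was -0.10. The other fringe genes, Lfng and Mfng, did not reach 1 RPKM in any proximal library. The protease gene Adam10 had 4.89, 3.63 and 3.46 RPKM against 4.24, 2.94 and 3.80 RPKM. Maml2, a Mastermind coactivator, had 16.5, 20.1 and 15.9 RPKM against 17.3, 18.4 and 12.1 RPKM. In both genes the groups overlapped widely.

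Among the target genes the receptor acts on, 7 of 14 were kept, with 5 fitted higher and 2 lower and a median log2 difference of 0.10. That median lay 0.01 below the one over all genes, and 0.02 and 0.01 below it under median-of-ratios scaling and quantile normalization, where it was negative. Without wildtype library 3 it was -0.01, and without library 2 labelled Notch1+/- it was 0.31. Hes1, a repressor that is the classic direct target, had 5.25, 3.13 and 2.18 RPKM in libraries labelled Notch1+/-, against 1.77, 1.01 and 3.81 RPKM in wildtype libraries (log2 0.64, SE 0.44, interval -0.33 to 1.61). Replicates of 1 genotype thus differed more than the group means did. Heyl, the most abundant target, had 38.1, 39.3 and 58.1 RPKM against 34.8, 30.4 and 50.2 RPKM (log2 0.23, SE 0.30). Hey2, a repressor of arterial cells, had 18.2, 12.6 and 21.2 RPKM against 20.4, 15.2 and 12.7 RPKM (log2 0.10, SE 0.22). Hey1, its close relative, had 2.82, 2.40 and 1.29 RPKM against 1.94, 2.62 and 2.48 RPKM (log2 -0.13, SE 0.31). For these 4 targets the groups overlapped. Rbpj, the DNA-binding partner, had 4.44, 3.82 and 3.495 RPKM against 4.73, 3.26 and 3.47 RPKM (log2 0.04, SE 0.20). Nrip2, listed with the targets, had 0.511, 1.18 and 1.99 RPKM against 0.678, 0.458 and 1.05 RPKM (log2 0.43, SE 0.35), and its distal log2 difference was 1.16 with groups that did not overlap.

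RBPJ binds DNA at the word TGGGAA, often with a G before it. The start regions of Hey2 and of Rbpj are shown because they were the targets kept that the RefSeq table of promoters (GRCm38.p6) held, and because they hold the word through which Notch1 is known to act. Each sequence runs for 300 bases across the transcription start, from upstream to downstream, and capitals mark TGGGAA or its reverse complement TTCCCA.
Hey2, chr10:30842734-30843033, minus strand: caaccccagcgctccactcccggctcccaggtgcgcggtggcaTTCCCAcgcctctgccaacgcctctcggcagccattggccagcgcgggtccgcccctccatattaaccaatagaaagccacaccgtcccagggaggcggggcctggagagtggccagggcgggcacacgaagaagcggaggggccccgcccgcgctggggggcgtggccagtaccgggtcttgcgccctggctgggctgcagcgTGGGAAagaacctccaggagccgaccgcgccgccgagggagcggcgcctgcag
Rbpj, chr5:53590096-53590395, plus strand: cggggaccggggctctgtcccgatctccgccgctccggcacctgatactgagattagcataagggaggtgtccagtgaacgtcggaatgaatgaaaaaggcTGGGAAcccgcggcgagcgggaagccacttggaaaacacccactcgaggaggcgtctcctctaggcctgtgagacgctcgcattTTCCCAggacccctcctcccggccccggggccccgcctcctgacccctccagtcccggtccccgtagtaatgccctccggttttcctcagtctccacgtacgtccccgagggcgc
Each region shown held the word 2 times, once on each strand. A second listed start region of Rbpj, chr5:53590236-53590535, overlaps the one shown and held the word 1 time. In Hey2 both matches continued as GTGGGAA, read on either strand, and in Rbpj neither did. Of the 32851 promoters in the table, 25.6% held TGGGAA on either strand and 6.38% held GTGGGAA, so a match is common and says nothing of binding. As given above, the RPKM of neither gene differed between the genotypes beyond the spread.

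**Figure D2:**
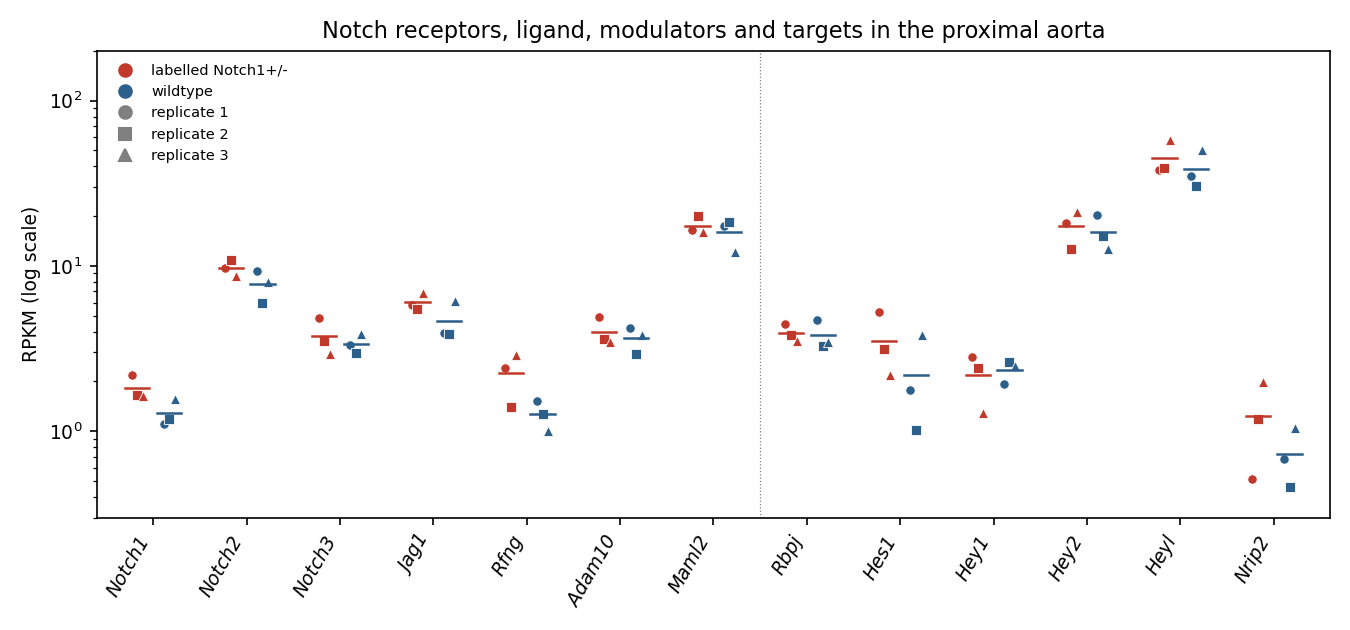
RPKM of 13 genes of the Notch pathway in each proximal library on a log axis, with libraries labelled Notch1+/- at the left and wildtype libraries at the right of each gene, bars at group means, and 1 symbol per replicate. Targets and Rbpj stand right of the dotted line. Of the 13, Notch1 alone has groups that do not overlap, at 1.63 to 2.20 against 1.11 to 1.56 RPKM. It is 1 of 20 in its list separated upward (5%), and 0 of the 7 targets kept are, against 7.93% of all genes.

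Over the whole table, limma called 0 of 15518 genes between the genotypes in proximal aorta (0.0%), at a Benjamini-Hochberg adjusted p under 0.05, and the smallest adjusted p was 0.425. At an unadjusted p under 0.05 there were 498 genes (3.21%), where chance gives 776. Of these, 409 were higher in libraries labelled Notch1+/- (2.64%) and 89 lower (0.574%). That split followed the scaling: it was 231 higher and 207 lower with median-of-ratios scaling, and 247 and 205 with quantile normalization. Limma voom on reads worked back from the RPKM also called 0 genes, with 475 at an unadjusted p under 0.05. The authors' deposited table gave 2 of 21954 genes a Tukey false discovery rate under 0.05 for this contrast, the small nucleolar RNA gene Snord98 and the unnamed model Gm27997, and 0 among the genes kept.

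The data limit large differences more than small ones. The 95% interval of the log2 difference lay between -1 and 1 for 11071 genes (71.3%). On the scale of log2(RPKM + 0.5) a 2-fold difference in RPKM comes to less than 1, most of all in low genes. An interval between -1 and 1 thus need not exclude a 2-fold difference in a low gene. The interval lay above -1 for 88.8% of genes and below 1 for 78.8%. In simulated data with the same design, 33 of 100 genes shifted by 1 on this log2 scale were called, and 93 of 100 shifted by 2. Only genes averaging 2 RPKM or more received a shift, so these shares do not extend to all 15518 genes kept. Simulated noise was independent between libraries, while the real libraries also differed in heart muscle, fat and blood transcripts.

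The 2 groups did not overlap for 1231 genes that were higher in libraries labelled Notch1+/- (7.93%) and for 209 that were lower (1.35%), 1440 genes in all (9.28%). Labels drawn at random over 6 libraries would separate a share about as large, so 1440 genes are not an excess. In distal aorta of the same mice the numbers over the same genes were 405 higher (2.61%) and 563 lower (3.63%). Of the 1231 genes, 41 were also separated upward and 23 downward in distal tissue. Of the 209, 9 were separated downward and 5 upward. The median over all genes was 0.11 proximally and -0.04 distally. With median-of-ratios scaling the proximal median was -0.002 and 49.7% of genes were fitted higher, so the excess of higher genes is relative to the deposited RPKM scale.

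**Figure D3:**
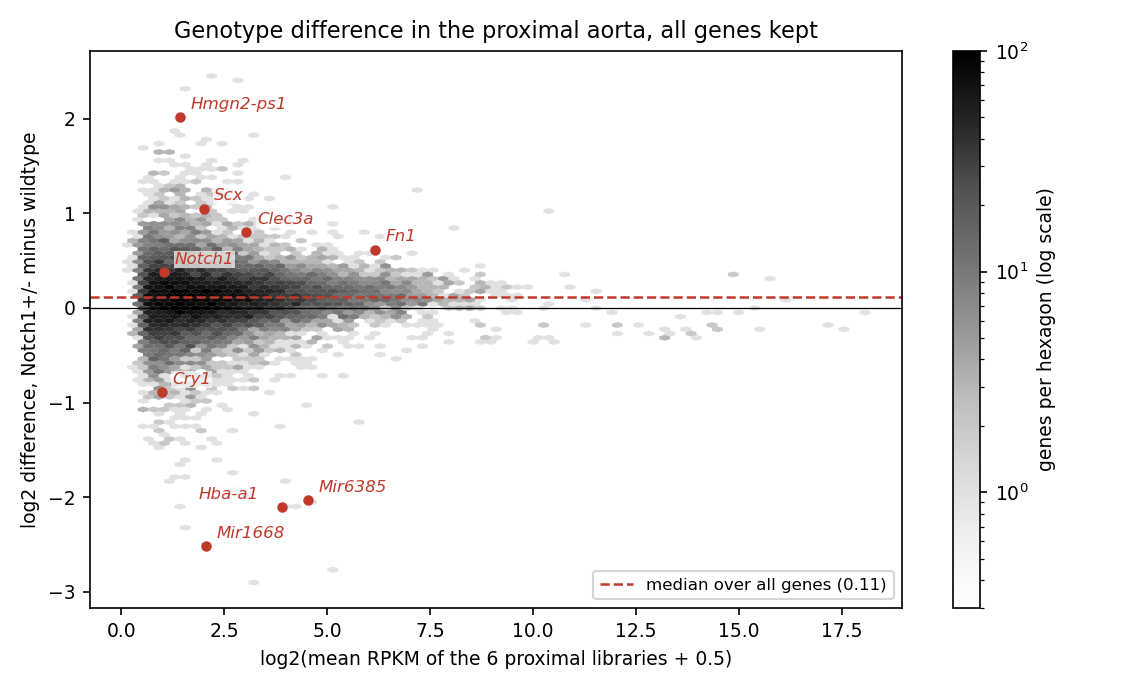
Log2 difference in RPKM, libraries labelled Notch1+/- minus wildtype, against the mean level over the 6 proximal libraries, for 15518 genes, with shade for the number of genes on a log scale. The dashed line marks the median of 0.11. Named genes are marked in red, and the scatter is widest at low levels, where Hmgn2-ps1 and Mir1668 lie.

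Genes with a mean of at least 2 RPKM whose groups did not overlap were ranked by unadjusted p. Unnamed gene models (Gm and a number, Rik or accession-like names) were left out, and the first 12 in each direction are described. Clec3a, a cartilage lectin gene, was among the higher ones. It had 8.56, 10.9 and 10.4 RPKM in libraries labelled Notch1+/- and 5.33, 4.56 and 6.67 RPKM in wildtype libraries (log2 0.80, SE 0.20, unadjusted p = 0.00183, limma adjusted p = 0.999). Separated groups were a condition of the ranking, and the Clec3a values rest on 47 to 113 reads per library. All 6 distal libraries were at the replaced floor value of 0.158 RPKM, so no genotype difference can be read there. Gkap1, which encodes an anchor of cGMP-dependent protein kinase, had 5.19, 4.28 and 8.35 RPKM against 2.44, 2.57 and 2.63 RPKM (log2 1.03, SE 0.25). Its wildtype libraries lay close together. Fjx1, a four-jointed homologue that in Drosophila is a target of Notch signalling, had 3.07, 2.41 and 3.42 RPKM against 1.98, 1.65 and 0.747 RPKM (log2 0.87, SE 0.26, unadjusted p = 0.00509).

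Rnf8, a ubiquitin ligase of the DNA damage response that was also in the ranking, had 2.94, 2.95 and 3.39 RPKM against 1.81, 1.19 and 1.08 RPKM (log2 0.97, SE 0.22). Prmt1, the main arginine methyltransferase, had 3.71, 3.44 and 4.25 RPKM against 1.72, 2.53 and 1.51 RPKM (log2 0.85, SE 0.23). Trappc2l, a vesicle tethering subunit, had 5.38, 5.40 and 7.67 RPKM against 3.37, 2.17 and 3.39 RPKM (log2 0.94, SE 0.24). The ranking took only separated groups, and among the 3 only Trappc2l was separated upward in distal tissue too. The tubulin cofactor gene Tbcb (log2 0.83) and the ubiquitin ligase subunit gene Fbxw8 (log2 0.91) have 22.5% and 33.4% of their exonic sequence covered by antisense genes. Rps14, a ribosomal protein gene (log2 0.93), and the pseudogenes Hmgn2-ps1, Rps19-ps10 and M6pr-ps have near copies elsewhere in the genome, so their reads are uncertain. Hmgn2-ps1 had the smallest unadjusted p of all, 3.23e-05, at 4.13, 3.99 and 3.11 RPKM against 1.25, 0.411 and 0.205 RPKM, but from 1 to 19 reads per library.

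Of the lower genes, Tfip11, a splicing factor, had 1.36, 1.23 and 1.55 RPKM in libraries labelled Notch1+/- and 3.24, 2.74 and 2.63 RPKM in wildtype libraries (log2 -0.84, SE 0.25, unadjusted p = 0.00583). Zfp691, a zinc finger gene, had 3.02, 2.93 and 3.68 RPKM against 6.18, 3.97 and 6.88 RPKM (log2 -0.71, SE 0.24). Mycbp, which encodes a partner of the transcription factor MYC, had 5.98, 8.72 and 9.50 RPKM against 10.6, 11.8 and 13.6 RPKM (log2 -0.57, SE 0.23). In each the mutant-labelled libraries were the lower 3, which the ranking required. Also in the ranking were Hs1bp3 (log2 -0.59), Tmem39a (-0.43), the mitochondrial genes Tomm34 (-0.41) and Coq10a (-0.62), and the nuclear pore gene Aaas (-0.52). The antisense gene Sardhos (-0.90) has 70.9% of its exonic sequence covered by a gene of the other strand. The hairpin genes Mir6385, Mir1668 and Mir5110 had log2 differences of -2.04, -2.52 and -2.08. Mir6385 lies wholly within a gene on the other strand, Mir1668 shares 29.0% of its bases with a gene on its own strand, and Mir1668 and Mir5110 had libraries at the floor, so none of these can be read as a mature miRNA.

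**Figure D4:**
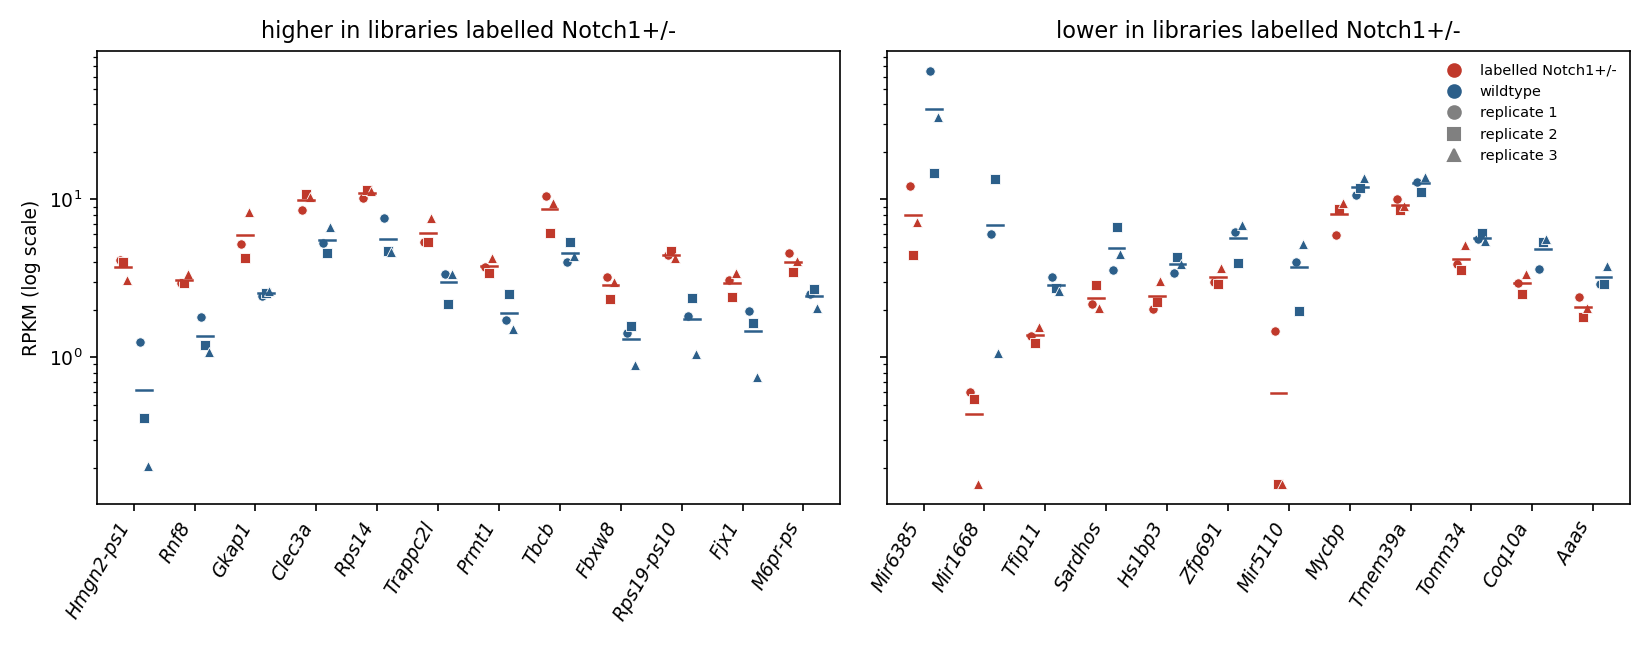
RPKM in each proximal library on a log axis for the 12 higher and 12 lower genes of smallest unadjusted p among those of at least 2 RPKM with groups that did not overlap, with libraries labelled Notch1+/- at the left and wildtype libraries at the right of each gene, and bars at group means. Unnamed gene models were left out. The points at 0.158 RPKM for Mir1668 and Mir5110 are replaced floor values.

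Genes of the contractile apparatus were fitted slightly higher in libraries labelled Notch1+/-. All 22 listed genes were kept, 22 were fitted higher and 0 passed the test, with a median log2 difference of 0.23, which is 0.12 above that of all genes. The groups did not overlap, upward, for 5 of 22 (22.7%, against 7.93% of all genes kept), which were Smtn, Synpo2, Mrvi1, Tagln and Lmod1. Smtn, which encodes the actin-binding smoothelin of differentiated smooth muscle, had 139, 106 and 110 RPKM against 70.7, 102 and 73.1 RPKM (log2 0.54, SE 0.29, unadjusted p = 0.0847). Mrvi1, a substrate of cGMP-dependent protein kinase in smooth muscle, had 38.0, 33.0 and 40.4 RPKM against 25.1, 31.6 and 27.3 RPKM (log2 0.40, SE 0.19). The excess of the list over all genes was 0.00 without wildtype library 3, the library with the most heart muscle and fat transcripts. With median-of-ratios scaling 18 of the 22 were fitted higher.

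Elastic fibre genes were also mostly fitted higher. Of 19 listed, 16 were kept and 15 were fitted higher, with a median log2 difference of 0.31, 0.20 above all genes, and 15 were also fitted higher under every scaling tried. Loxl1, which cross-links elastin, had 14.3, 13.3 and 13.5 RPKM in libraries labelled Notch1+/- and 6.88, 8.74 and 9.46 RPKM in wildtype libraries (log2 0.69, SE 0.28, unadjusted p = 0.0294, limma adjusted p = 0.999). Its mutant-labelled libraries were closely grouped above the rest. Fbn1, the fibrillin gene mutated in Marfan syndrome, had 32.1, 28.8 and 35.1 RPKM against 18.3, 25.5 and 27.6 RPKM (log2 0.44, SE 0.27), also without overlap, and has 20.1% of its exonic sequence covered by antisense genes. Fbln5, which guides elastic fibre assembly, had 51.6, 48.3 and 34.6 RPKM against 40.8, 32.7 and 33.3 RPKM, with overlap. Mfap5, a microfibril protein gene, was the third of the 16 whose groups did not overlap upward (log2 0.21), where 7.93% of all genes did not. Summed over the list, elastic fibre RPKM was 1194, 1136 and 1144 against 962, 1083 and 959. Without wildtype library 1 the list lay 0.03 above all genes in place of 0.20.

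All 20 collagen genes kept were fitted higher, with a median of 0.25, 0.14 above all genes, and 17 were fitted higher with median-of-ratios scaling. Groups did not overlap upward for 4 of them (20%, against 7.93% of all genes), Col18a1, Col5a1, Col4a2 and Col4a3. Col18a1, a basement membrane collagen whose fragment is endostatin, had 53.2, 36.6 and 37.0 RPKM against 24.1, 31.4 and 26.9 RPKM (log2 0.60, SE 0.26, unadjusted p = 0.0405). Here too wildtype library 1 mattered, since the excess over all genes was 0.02 without it. Of 25 proteoglycan and matricellular genes 22 were fitted higher, at a median of 0.18, 0.06 above all genes. Without library 1 labelled Notch1+/- the median was 0.09 and lay 0.00 above them, and with median-of-ratios scaling 17 were fitted higher. Fn1, fibronectin, had 113, 80.5 and 67.0 RPKM in libraries labelled Notch1+/- and 53.3, 53.4 and 58.9 RPKM in wildtype libraries (log2 0.62, SE 0.21, unadjusted p = 0.0135). Hspg2, the basement membrane proteoglycan perlecan, had 61.8, 41.2 and 45.8 RPKM against 30.2, 35.7 and 32.5 RPKM (log2 0.57, SE 0.21), and Tnc, tenascin C of remodelling matrix, 3.48, 3.66 and 2.44 RPKM against 1.79, 1.56 and 2.43 RPKM (log2 0.61, SE 0.26). For Fn1, Hspg2 and Tnc, 3 of 25 (12.0%, against 7.93%), the groups did not overlap, although the highest value of Fn1 and of Hspg2 came from library 1 labelled Notch1+/-. In distal tissue the log2 difference of Fn1 was 0.00 and that of Hspg2 0.14.

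Matrix proteases and their inhibitors gave 17 of 20 fitted higher at a median of 0.22, with 13 fitted higher under median-of-ratios scaling. The list lay 0.11 above all genes, and 0.05 above them without library 2 or library 3 labelled Notch1+/- or without wildtype library 1. Adamts2, which trims procollagen, had 12.2, 8.68 and 10.5 RPKM against 6.34, 8.002 and 7.47 RPKM (log2 0.49, SE 0.26), and Timp2 and Ctsk were also separated upward, at 0.21 and 0.38, 3 of 20 in all (15.0%, against 7.93%). Ctss, a cathepsin of macrophages, was separated downward (log2 -0.44, SE 0.37), 1 of 20 (5%, against 1.35% of all genes). The membrane metalloprotease gene Mmp23 (log2 0.48, SE 0.21) and Timp1, an inhibitor of metalloproteases (log2 0.39, SE 0.27), had groups that overlapped.

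Of 22 TGF-beta pathway genes, a pathway that drives matrix synthesis in the aortic wall, 20 were fitted higher and 0 passed the test, at a median of 0.23. With median-of-ratios scaling 15 of the 22 were fitted higher. Eng, the endothelial co-receptor endoglin, had 6.63, 5.73 and 6.13 RPKM in libraries labelled Notch1+/- and 2.57, 4.59 and 4.43 RPKM in wildtype libraries (log2 0.64, SE 0.23, unadjusted p = 0.0166). Ltbp2, a matrix protein related to the latent TGF-beta binding proteins, had 10.6, 6.44 and 4.84 RPKM against 4.10, 4.71 and 4.44 RPKM (log2 0.60, SE 0.28), with library 1 labelled Notch1+/- far above the others. Its groups and those of Eng and Ski, a repressor of the pathway (log2 0.24), did not overlap (13.6% of the list, against 7.93%), while those of Ltbp3 did (log2 0.45, SE 0.23). Without library 1 labelled Notch1+/- the list lay 0.01 below all genes, in place of 0.12 above them. The 18 BMP pathway genes had 12 fitted higher, a median of 0.13 and no separated gene. That median was -0.01 without wildtype library 2, 0.02 without wildtype library 3, and 0.04 and 0.09 without libraries 1 and 2 labelled Notch1+/-. The receptor gene Acvr1 had a log2 difference of 0.28 (SE 0.19).

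Genes whose mutation causes heritable aortic disease in people were fitted higher in 19 of 22 cases at a median of 0.21, with 4 separated upward (18.2%, against 7.93% of all genes), Fbn1, Mfap5, Ski and Notch1. The list lay 0.10 above all genes, 0.06 above them without library 1 labelled Notch1+/- and 0.17 without wildtype library 2. With median-of-ratios scaling 16 of the 22 were fitted higher. Outside those 4, Tgfb3, a ligand of the TGF-beta pathway, had 25.6, 21.9 and 29.3 RPKM against 15.3, 17.5 and 24.0 RPKM (log2 0.44, SE 0.25), and Flna, filamin A, 416, 291 and 373 RPKM against 285, 323 and 223 RPKM (log2 0.38, SE 0.22). Cartilage and valve genes gave 12 of 17 fitted higher at a median of 0.16, with Clec3a and Scx separated (11.8%, against 7.93%). Without wildtype library 2 that median was -0.01, without library 1 labelled Notch1+/- 0.07, and without wildtype library 3 and library 3 labelled Notch1+/- 0.42 and 0.26. Scx, scleraxis, a transcription factor of tendons and valves, had 5.24, 5.31 and 3.91 RPKM against 2.15, 1.16 and 3.27 RPKM (log2 1.05, SE 0.32, unadjusted p = 0.00624, limma adjusted p = 0.999). Its groups did not overlap, and counts were 23 to 103 reads per library. Cardiac and second heart field factors lay near the genes at large, with 5 of 7 fitted higher, a median of 0.06 and 1 of 7 fitted higher with median-of-ratios scaling. Leaving out 1 library moved that median to between -0.10 without wildtype library 2 and 0.13 without wildtype library 1. Hand2, a factor of the outflow tract, had 23.1, 19.2 and 18.8 RPKM against 22.3, 21.8 and 21.4 RPKM (log2 -0.10, SE 0.16). Mef2c, a muscle factor, was separated at 7.58, 7.60 and 6.85 RPKM against 5.48, 6.46 and 6.50 RPKM (log2 0.24, SE 0.20). It was 1 of 7 separated upward (14.3%, against 7.93%). Isl1, a marker of second heart field progenitors, had a log2 difference of -0.20 (SE 0.38). In 9 neural crest factors the median was 0.08, between -0.10 without library 3 labelled Notch1+/- and 0.15 without wildtype library 3, and Snai2, a zinc finger factor of migrating crest cells, had -0.51 (SE 0.32).

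Vasoactive genes gave 11 of 13 fitted higher at a median of 0.15, 0.04 above all genes. Without library 2 labelled Notch1+/- the list lay 0.05 below all genes at a median of 0.08, and with median-of-ratios scaling 7 of 13 were fitted higher. Edn1, the vasoconstrictor endothelin 1, had 3.93, 3.82 and 2.77 RPKM against 2.94, 2.81 and 1.78 RPKM (log2 0.42, SE 0.22), with overlap. Ece1, which activates it, was separated at 36.9, 29.4 and 32.9 RPKM against 24.1, 24.5 and 27.4 RPKM (log2 0.38, SE 0.23). Nos3, the endothelial nitric oxide synthase, was also separated (log2 0.43, SE 0.36) and has 32.3% of its exonic sequence covered by antisense genes. Separated upward were thus 2 of 13 (15.4%, against 7.93% of all genes).

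**Figure D5:**
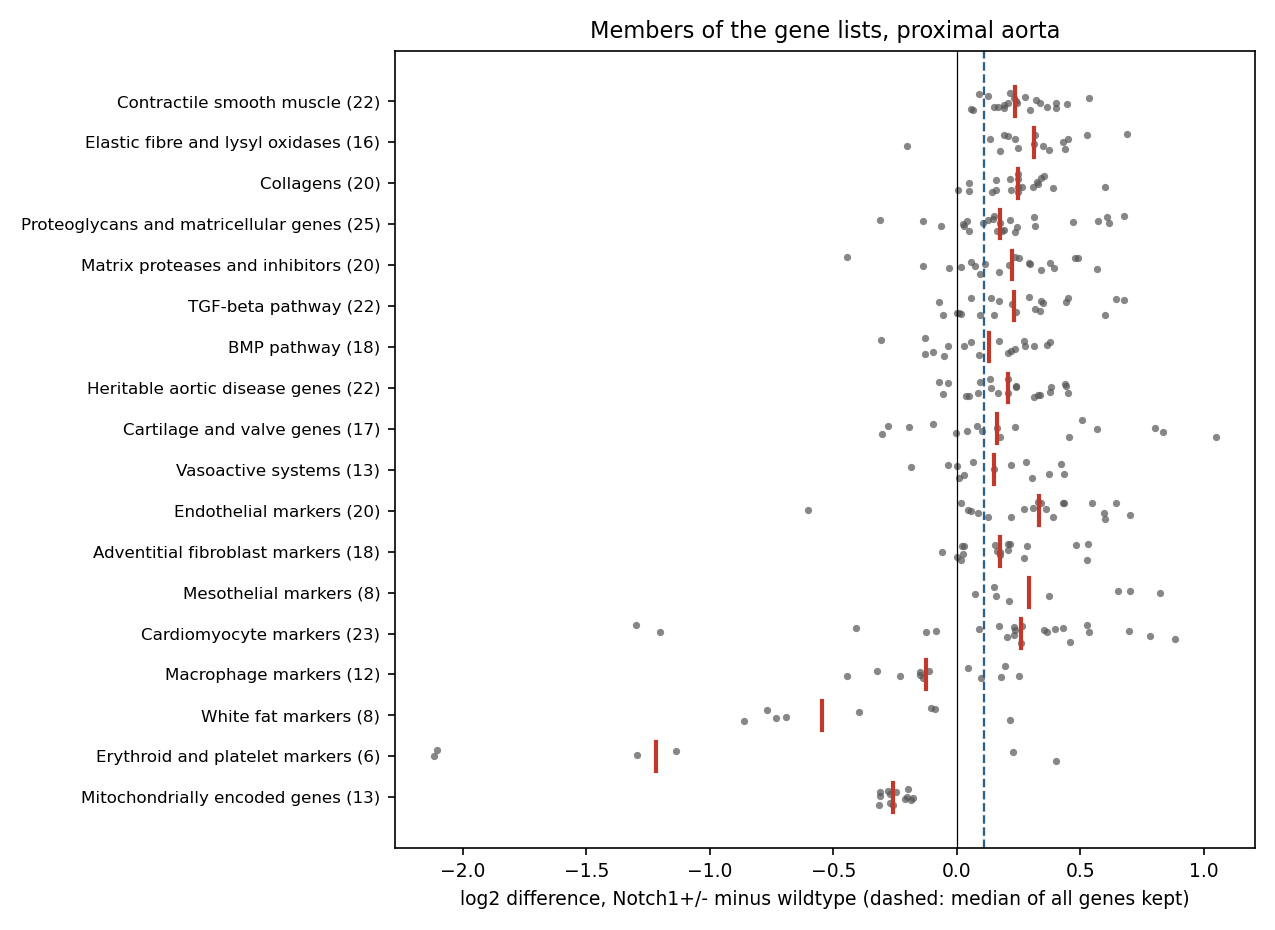
Log2 difference in RPKM, libraries labelled Notch1+/- minus wildtype, of each kept member of 18 gene lists, with the number kept in parentheses, red bars at list medians and the dashed line at the median of all genes, 0.11. Muscle, elastic fibre, collagen and endothelial lists lie right of the dashed line. White fat, red cell and mitochondrially encoded lists lie left of 0.

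Markers of endothelium were mostly fitted higher. Of 20 kept, 19 were on that side, the median was 0.33, 0.22 above all genes, and 0 passed the test. With median-of-ratios scaling 16 of the 20 were fitted higher, and with quantile normalization 15. The groups did not overlap for Icam2, Pecam1, Eng and Nos3, 4 of 20 and all upward (20%, against 7.93% of all genes). Icam2, an adhesion molecule of endothelium, had 2.59, 1.84 and 1.56 RPKM in libraries labelled Notch1+/- and 1.08, 1.14 and 1.17 RPKM in wildtype libraries (log2 0.60, SE 0.28). Pecam1, the platelet and endothelial adhesion molecule, had 23.6, 15.6 and 16.7 RPKM against 11.2, 13.8 and 12.2 RPKM (log2 0.55, SE 0.30). Ecscr, a surface protein of endothelial cells, had 3.47, 4.88 and 5.35 RPKM against 1.61, 3.65 and 2.82 RPKM (log2 0.70, SE 0.30), overlapping through a single value on each side. Summed over 22 markers the values were 107, 101.3 and 113 RPKM against 73.4, 104 and 99.1 RPKM, and wildtype library 1 was the lowest. Leaving it out moved the excess of the list over all genes to 0.10. Whether the matrix and TGF-beta values move with the share of endothelium was not tested.

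Adventitial fibroblast markers gave 17 of 18 fitted higher at a median of 0.18, with 12 fitted higher under median-of-ratios scaling. The list lay 0.06 above all genes, between 0.02 above them without wildtype library 2 or library 3 labelled Notch1+/- and 0.16 without wildtype library 3. Pdgfrb, a receptor of mural and adventitial cells, had 16.5, 14.4 and 15.3 RPKM against 9.49, 11.1 and 12.2 RPKM (log2 0.48, SE 0.21, unadjusted p = 0.0417). Clec3b, tetranectin, was also separated (log2 0.53, SE 0.27), and the third of the 18 was Mfap5 (16.7%, against 7.93%). Ly6a, the surface antigen Sca-1, overlapped (log2 0.53, SE 0.37). Mesothelial markers were fitted higher for 8 of 8, but the list lay on either side of all genes as single libraries were left out, from 0.14 below without wildtype library 3 to 0.81 above without wildtype library 2.

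The heart muscle and fat lists moved with single wildtype libraries. Heart muscle markers had a median log2 difference of 0.26 with 18 of 23 fitted higher, which lay 0.74 above all genes without wildtype library 3 and 0.46 below them without wildtype library 1. Ankrd1, a stress-responsive gene of heart muscle, had 44.7, 42.4 and 32.9 RPKM in libraries labelled Notch1+/- and 12.99, 17.5 and 42.0 RPKM in wildtype libraries (log2 0.88, SE 0.41). Myoz2, a sarcomere protein, was separated downward at 14.8, 14.6 and 14.5 RPKM against 19.5, 15.9 and 24.3 RPKM (log2 -0.41, SE 0.27). It was 1 of 23 separated downward (4.35%, against 1.35% of all genes), and 0 were separated upward. White fat markers had 7 of 8 fitted lower at a median of -0.54, and lay 0.11 above all genes without wildtype library 3 and 0.07 below them without library 1 labelled Notch1+/-. Adipoq, the fat cell hormone adiponectin, had 0.417, 2.37 and 1.65 RPKM against 1.41, 1.25 and 9.68 RPKM. Brown fat markers had 3 of 5 fitted lower at a median of -0.12. It lay between -0.28 without wildtype library 2 and 0.39 without wildtype library 3. Red cell and platelet markers had 4 of 6 fitted lower at a median of -1.22. It lay between -2.07 without wildtype library 2 and -0.41 without library 1 labelled Notch1+/-. The haemoglobin gene Hba-a1 had 0.710, 2.59 and 5.87 RPKM against 59.98, 1.34 and 16.6 RPKM, and reads of its near copy Hba-a2 may be split with it. Macrophage markers had 7 of 12 fitted lower at a median of -0.12, which was -0.01 without library 1 labelled Notch1+/- and -0.03 without library 3 of either label. Of 17 lymphocyte and antigen presentation genes 4 were kept, all fitted lower at a median of -0.53, and 0 were separated. All 4 stayed lower under each scaling and with any 1 library left out, at medians of -0.83 to -0.37. Of these, the class II gene H2-Aa had 4.204, 6.75 and 5.11 RPKM against 11.7, 5.63 and 9.12 RPKM (log2 -0.64, SE 0.30), lowest of the wildtype libraries in number 2.

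The 13 mitochondrially encoded genes were all fitted lower on the deposited scale, by a median of -0.26, or 0.37 below all genes. With quantile normalization that median was -0.08, or 0.08 below all genes, and 1 of the 13 was fitted higher. It was -0.11 without wildtype library 3, -0.14 without library 1 labelled Notch1+/- and -0.41 without wildtype library 1. Of these, mt-Co1, a subunit of cytochrome oxidase, had a log2 difference of -0.31 (SE 0.28), with wildtype library 3 the highest of the 6. Nuclear genes of the respiratory chain lay at 0.12, 0.01 above all genes. Leaving out 1 library gave medians between -0.02 without wildtype library 2 and 0.34 without wildtype library 3, with 0.04 and 0.05 without library 3 labelled Notch1+/- and wildtype library 1. Of 77 kept, 57 were fitted higher and 3 were separated, all upward (3.9%, against 7.93% of all genes). Ndufa7, a subunit of complex I, was among the separated genes (log2 0.57, SE 0.30), while Ndufa6 of the same complex had -0.43 (SE 0.21) with overlap. Cytosolic ribosomal protein genes lay at 0.14 with 69 of 82 fitted higher, and with 46 of 82 under median-of-ratios scaling. That median was 0.02 without wildtype library 2 and 0.27 without wildtype library 1.

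Clock genes differed between replicates more than between genotypes. Their mean level as log2(RPKM + 0.5) was 3.65, 3.36 and 2.05 in libraries labelled Notch1+/-, against 3.49, 3.32 and 1.83 in wildtype libraries, lowest in library 3 of each label. The median log2 difference was 0.11, with 11 of 14 fitted higher, but it was -0.605 with 4 fitted higher without wildtype library 3, and 0.76 without library 3 labelled Notch1+/-. It was -0.25 and 0.02 without libraries 1 and 2 labelled Notch1+/-, and 0.45 and 0.44 without wildtype libraries 1 and 2. Cry1, a repressor of the circadian clock, had 0.977, 1.09 and 0.575 RPKM in libraries labelled Notch1+/- and 2.69, 1.62 and 1.88 RPKM in wildtype libraries (log2 -0.89, SE 0.33, unadjusted p = 0.0177, limma adjusted p = 0.999). Cry1 alone of the 14 clock genes kept was separated, downward (7.14%, against 1.35% of all genes). Its groups did not overlap in distal aorta either, at 1.18, 1.23 and 0.650 RPKM against 3.44, 1.58 and 1.30 RPKM, from the same mice. Nr1d1, the clock repressor REV-ERB alpha, had 146, 93.0 and 56.8 RPKM against 58.1, 83.9 and 33.3 RPKM (log2 0.74, SE 0.58) and varied within each genotype. The times of day at which the tissue was taken are not given in the labels. Of 11 interferon-stimulated genes 7 were fitted higher at a median of 0.15, which lay between -0.13 without wildtype library 1 and 0.45 without wildtype library 3. Gbp2, a guanylate-binding protein, was separated upward at 3.51, 4.02 and 2.75 RPKM against 1.79, 2.03 and 1.95 RPKM (log2 0.69, SE 0.23, unadjusted p = 0.0106). It was 1 of 11 separated upward (9.09%, against 7.93% of all genes), and 1 of 11 was separated downward (9.09%, against 1.35%). Irf9, a transcription factor of the interferon response, overlapped (log2 0.70, SE 0.31), and Ifit1 had a log2 difference of -0.89 (SE 0.63), highest in wildtype library 3 at 7.14 RPKM. Immediate early genes, which respond to handling of tissue, had a median of 0.00, with 10 of 19 fitted higher, and between -0.21 without library 1 labelled Notch1+/- and 0.27 without wildtype library 1. Zfp36, one of them, had 0.40 (SE 0.30). Heat shock and unfolded protein genes were fitted higher for 14 of 15, and Calr, the chaperone calreticulin, had 0.51 (SE 0.27). Of the 15, 1 was separated downward (6.67%, against 1.35% of all genes) and 0 upward. Without library 1 labelled Notch1+/- the list lay 0.09 below all genes. Hypoxia and glycolysis, inflammatory and cell cycle genes had medians of 0.11, 0.22 and 0.22 with 15, 5 and 4 genes kept. As single libraries were left out these medians lay between 0.02 and 0.25, 0.09 and 0.37, and -0.01 and 0.32. Of the inflammatory genes, the chemokine gene Cxcl12 had 0.39 (SE 0.23). Schwann and nerve markers, with 3 genes kept, had a median of -0.03. Leaving out 1 library gave -0.25 without wildtype library 2 to 0.26 without library 1 labelled Notch1+/-.

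Whether the proximal difference departs from the distal one was tested by the interaction of genotype and location. Limma called 0 of 15518 genes (0.0%), with 435 at an unadjusted p under 0.05 (2.8%). Voom on the recovered reads also called 0, with 372. These fits do not use that each mouse gave a proximal and a distal library. With mouse as a random effect limma also called 0, with 522 at an unadjusted p under 0.05. Among named genes the smallest interaction p belonged to Krtcap2, a subunit that stabilises the oligosaccharyltransferase complex. It had 5.18, 3.77 and 3.49 RPKM against 2.89, 3.43 and 2.63 RPKM in proximal tissue, and 2.58, 3.24 and 2.65 RPKM against 7.49, 5.78 and 7.38 RPKM in distal tissue (interaction log2 1.55, SE 0.28, adjusted p = 1). The larger part of that difference lay in distal tissue. Ext2, a polymerase of heparan sulphate, had a log2 difference of 0.74 (SE 0.36) in proximal aorta and -1.34 in distal aorta, and Gnrh1, the gonadotropin-releasing hormone gene, 1.35 (SE 0.46) and -1.11. On the other side, Ddit3, a stress-response transcription factor, had -0.39 (SE 0.27) in proximal tissue and 0.61 in the distal part, and the POU factor gene Pou5f2 had -0.54 (SE 0.30) and 0.63. Wildtype library 3 was at the floor for Gnrh1.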

How the data were processed

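The study holds 12 RNA libraries, a proximal and a distal piece of ascending aorta from each of 6 mice. Per the labels' protocols, cDNA was amplified from 10 ng of total RNA with a kit that does not mark strand. Reads were aligned to mm10 with TopHat2 2.1.0 and Bowtie2, per the submitters' processing notes, and the counting tool and annotation are not given in the sources used here. Gene levels are RPKM values that the authors deposited on a filtered gene list. Values under the library's detection threshold stand at 0.158 RPKM, per the file headers. The authors deposited p-values of Tukey comparisons and fold changes (a linear ratio, wildtype over Notch1+/-) in the same table, along with a log2 correlation matrix that was not used. In all, 24 columns of per-sample values were not used. Depth was recovered from the RPKM steps: whole reads, within 0.02 reads, were found for 99.96% of genes that had 6 or more values over the floor. Amplified reads are not independent molecules, so read numbers cover counting error only.

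Libraries were grouped by title. log2(RPKM + 0.5) of all 12 libraries entered 1 limma model (3.58.1, R 4.3.3) with 4 group means and a variance trend. P-values are 2-sided with Benjamini-Hochberg adjustment over all genes kept, and a gene was called under 0.05. Differences are on this scale, which understates those of low genes, and 472 genes kept have a proximal floor value. Of the genes kept, 58 passed the filter with every wildtype library under 1 RPKM and 19 with every library labelled Notch1+/- under it. Separate mice stand behind the replicates. The fit was tested on simulated data. Gene positions and overlaps come from GENCODE M21. The values used are not counts, so no count model was the main test. Members, lists and rules were chosen with earlier results of these data known. Named genes are 13 of the 27 kept genes of the Notch lists, chosen with their values known, the 12 higher and 12 lower genes of smallest unadjusted p with at least 2 RPKM and groups that do not overlap, the 3 members of largest moderated t in each other list, and the 3 per direction of smallest interaction p. Both rankings by p took genes with a mean of at least 2 RPKM and left out unnamed gene models. Tagln, Lmod1, Mfap5, Col4a2, Timp2, Ctsk, Ctss, Ski and Pecam1 were named after their values were seen. "Separated" means that the groups do not overlap. Alternatives changed the pseudocount, filter, scaling, model and libraries.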

Additional observations from a re-analysis of the deposited data

Results flagged for a closer look

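The genotype difference of Krtcap2 ran in opposite directions at the 2 locations: every library labelled Notch1+/- lay above every wildtype library in proximal aorta and below every one in distal aorta. The interaction was 1.55 on the log2 scale (SE 0.28, limma unadjusted p = 0.000131, adjusted p = 1), so it does not pass the correction over 15518 genes. Antisense genes cover 15.7% of its exonic sequence.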

How the results depend on the processing

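Over 24 alternatives the number of genes called in proximal aorta was 0, except 1 with limma without a variance trend (the unnamed model Gm22340) and 1 without wildtype replicate 1 (Hmgn2-ps1, adjusted p = 0.0347, against 0.425 with all libraries). Leaving out 1 library gave 0 to 1 called genes. The interaction and the gene lists gave 0 called genes under each alternative run. For the proximal difference, the count at an unadjusted p under 0.05 was lowest at 148 (at least 5 RPKM, 6238 genes tested). It was highest at 842 (replicate block, proximal libraries alone). For the interaction that count was highest at 1317, with limma weights for each library, against 435 in the main fit. The smallest limma adjusted p of the interaction with these weights was 0.202. Notch1 was fitted higher under all 23 alternatives that tested it, at 0.27 to 0.50 log2 with adjusted p of 0.878 to 1, and 0.27 to 0.49 when 1 library was left out. Of 110 named genes, 103 kept their sign throughout. Most were named for separated groups, a small p or a large moderated t in these same data. Their stable sign was thus largely set by the choice. The 110 hold 13 of the 27 kept genes of the Notch lists. Over all 27, 13 changed sign under at least 1 alternative, 7 with median-of-ratios scaling and 5 with quantile normalization. Of the named genes, Adam10, Hey2 and Rbpj changed sign with median-of-ratios scaling (-0.0042, -0.0261 and -0.0722), and Hey2 and Rbpj with quantile normalization (-0.0042 and -0.0581), where the median of all genes moves to near 0. Leave-one-out ranges that crossed 0 were -0.0278 to 0.2103 for Adam10, -0.3122 to 0.1331 for Hey1, -0.0573 to 0.3071 for Hey2, -0.6042 to 0.0859 for Isl1, -0.0363 to 0.256 for Maml2, -0.0591 to 0.2608 for Notch3 and -0.0502 to 0.1883 for Rbpj. Protein-coding genes alone and voom on recovered reads were added after seeing the data, and both called 0. With the replicate block 0 genes were called and 585 had an unadjusted p under 0.05, against 498. The deviations of same-numbered libraries correlated at 0.15, -0.03 and 0.28, and those of other-numbered libraries at -0.24 to 0.10. Same-numbered libraries of different genotype come from different mice, and the labels do not say what else they share. With 3 libraries a group, the median SE of 0.27 log2 limits what can be called.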
